A study of Homo sapiens with 42 samples.

Results

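The comparison was between the cytoplasm of 2 lines of MDA-MB-231 cells, a human triple-negative breast cancer cell line: MDA-LM2, labelled highly metastatic to lungs, and MDA-Par, labelled poorly metastatic. It used 6 of the 42 libraries of the series, 3 of LM2 and 3 of Par, chosen by their labels alone. Cells of both lines grew in DMEM high glucose with 10% FBS, with Pen Strep and Amphotericin B, and their labels name no compound and no change of genotype. Cytoplasmic RNA was read from its 3′ ends with QuantSeq REV, so a read marks the place where a transcript was polyadenylated or primed. Each group is 1 line, so a difference belongs to these 2 lines and not to metastatic capacity in general. Nothing in the labels tells whether the 3 replicates of a line were grown apart, so the p-values rest on the spread among 6 libraries, which may be technical.

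MDA-LM2 is known as a derivative of MDA-MB-231 obtained by selection for growth in the lungs of mice. Differences between such a line and its parent can lie in cell adhesion, the actin cytoskeleton, secreted factors, metabolism and the processing of RNA. Many human genes carry more than 1 poly(A) site, and the choice between a site nearer to the start of the gene (proximal) and one farther downstream (distal) sets which 3′ sequence the mRNA holds and, where the sites lie in different last exons, which protein end it encodes.

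The 6 libraries held 1583862 to 2304698 counts. The epithelial and hormone receptor genes ESR1, PGR and FOXA1 had no read, and ERBB2 and CDH1 had at most 7 reads over all 6 libraries, while VIM, CD44, AXL, CAV1 and MSN, which MDA-MB-231 cells are known for, were at 27.5 CPM or more in every library (CPM, counts scaled to library size with TMM factors). Of the other epithelial genes looked at, EPCAM stood at 1.30 to 7.26 CPM and GATA3 at 7.78 to 14.7 CPM. Defining markers of immune and endothelial cells (PTPRC, CD3E, LYZ, PECAM1, VWF, CDH5, KDR) summed to 1 read, and CD68 stood at 1.94 to 4.35 CPM. MALAT1, a nuclear RNA, stood at 2.18 to 6.22 CPM here and at 12.6 CPM or more in the nuclear libraries of the same lines. TUG1, also looked at as a nuclear RNA, went the other way, at 46.3 to 77.8 CPM here and 37.3 to 59.3 CPM in those nuclei. NEAT1, KCNQ1OT1 and MEG3 had no read here or in those nuclei, so they tell nothing about the fraction.

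Par library 3 stood nearer to the LM2 libraries than the other Par libraries did. Its Pearson correlation with the LM2 libraries, across genes on the log2 CPM scale, was 0.935 to 0.939, against 0.887 to 0.921 for Par libraries 1 and 2, and it was the Par library nearest to the LM2 mean in 68.2% of the genes called below. Among Par libraries, the order library 2 over library 1 over library 3 held in 694 of 1275 genes called lower in LM2 (54.4%), in 82 of 1214 called higher (6.75%) and in 1096 of 5112 not called (21.4%). LM2 library 3 was the lowest of the LM2 libraries in 43.5% of the lower calls and in 26.4% of the higher calls. Par library 3 was the lowest of its group in 917 of the lower calls and the highest in 780 of the higher calls, against 2897 and 2904 of all 7601 genes tested. In most called genes of either direction it thus lay on the LM2 side of its group. The part of this order in the differences between the lines was not tested.

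**Figure D1:**
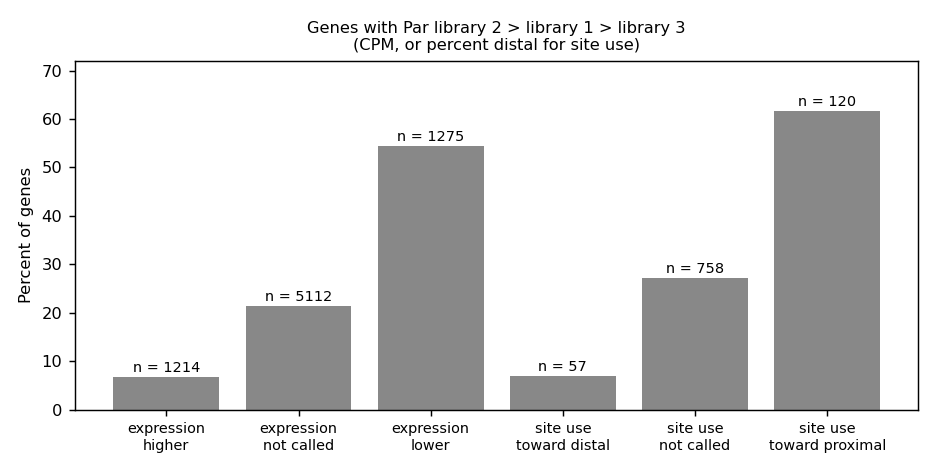
Each bar gives the percent of genes (vertical axis) in which Par library 2 exceeded library 1 and library 1 exceeded library 3, by call in LM2 against Par, in CPM for expression and in percent distal for site use. The bars for lower expression (54.4%) and for shifts toward the proximal site (61.7%) are the tallest, and those for higher expression (6.75%) and shifts toward the distal site (7.02%) the lowest.

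Of 7601 genes tested, 2489 passed at an adjusted p under 0.05 (32.7%), 1214 higher in LM2 (16.0%) and 1275 lower (16.8%). These calls, and every adjusted p for expression below, come from edgeR's quasi-likelihood test with Benjamini-Hochberg adjustment over all 7601 genes, n = 3 against 3. At least a 2-fold change was found in 311 of the higher calls (4.09% of the genes tested) and in 613 of the lower calls (8.06%), so the larger changes were more often falls. The median size was 0.71 on the log2 scale for rises and 0.97 for falls. All 3 LM2 libraries lay above all 3 Par libraries in 1743 genes (22.9%) and below them in 1742 (22.9%). Without Par library 3, 3290 genes were called, 2419 of the 2489 among them, and each of the 2489 kept its direction. That fit reuses the other libraries and drops the Par library nearest to LM2, so this is no separate check.

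Among the genes that rose most was CSF3, the cytokine G-CSF that drives neutrophil production (chr17:40015361-40017813, plus strand). It had 60.9, 47.9 and 58.5 CPM in LM2 and 0 CPM in all 3 Par libraries. With 272 reads against 0, it was at least 114-fold higher in LM2, counting 3 reads over the group as the limit that a count of 0 allows. GYPC, a glycophorin of the cell membrane (chr2:126655933-126696670, plus strand), had 239 reads against 0 and was at least 99.9-fold higher. FKBP10, a collagen-folding enzyme of the endoplasmic reticulum (chr17:41812680-41823217, plus strand), had 151 reads in LM2 and 1 in Par, a ratio of 189 with a 95% exact counting interval of 33.5 to 7526. The Par libraries were empty or nearly so for these genes and every LM2 library held them. CD70, a ligand of the tumour necrosis factor family (chr19:6583183-6604103, minus strand), had 65.5, 59.7 and 68.9 CPM in LM2 and 0.437, 1.47 and 1.12 in Par (log2 difference 5.95 ± 0.33 SE, adjusted p = 5.95e-09). TFAP2C, the transcription factor AP-2 gamma (chr20:56629302-56639283, plus strand), had 172, 195 and 178 CPM in LM2 and 12.2, 9.34 and 14.5 in Par (log2 difference 3.92 ± 0.17 SE, adjusted p = 3.73e-10). For both genes the lowest LM2 library was far above the highest Par library. IGFBP2, a secreted binding protein for insulin-like growth factors, had 44.1, 27.3 and 58.5 CPM in LM2 and 2.62, 3.93 and 3.35 in Par (log2 difference 3.70 ± 0.35 SE, adjusted p = 2.13e-06). PHGDH, the first enzyme of serine synthesis, had 33.7, 33.6 and 28.96 CPM in LM2 and 2.62, 2.46 and 5.58 in Par (log2 difference 3.19 ± 0.33 SE, adjusted p = 4.92e-06). The other large rises were WDR72, MAGEB2 (a cancer-testis antigen), PCBP3 (a poly(rC)-binding protein), METRNL (a secreted protein) and POU2F2 (the transcription factor OCT-2), with log2 differences of 3.00 to 4.87 and no overlap between the groups.

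MGMT, which repairs alkylated guanine in DNA, was among the genes that fell most (chr10:129467184-129768007, plus strand). It had 0 CPM in all 3 LM2 libraries and 23.1, 16.2 and 24.01 in Par. With 0 reads against 129 it was at least 34.3-fold lower in LM2. AFAP1-AS1, a long RNA antisense to AFAP1, had 3 reads against 177, a ratio of 47.1 with a counting interval of 15.8 to 230. Whether the counting used strand is not given in the sources used here, so reads of an antisense gene and its partner may be mixed. TNS4, a tensin of focal adhesions, had 4.54, 0 and 0 CPM in LM2 and 42.3, 40.3 and 50.2 in Par (log2 difference -4.88 ± 0.52 SE, adjusted p = 6.11e-06). The tight junction gene CLDN4 had 2.59, 1.24 and 0 CPM in LM2 and 29.2, 35.9 and 27.9 in Par (log2 difference -4.58 ± 0.47 SE, adjusted p = 4.1e-06). In each the 3 LM2 libraries were near 0 and the 3 Par libraries were close to each other. ARPC1B, a subunit of the actin-branching Arp2/3 complex (chr7:99374249-99394816, plus strand), had 24.6, 24.2 and 26.6 CPM in LM2 and 234, 339.6 and 146 in Par (log2 difference -3.25 ± 0.26 SE, adjusted p = 2.78e-07). GAS6, the ligand of AXL and its sister receptors, had 9.72, 13.1 and 2.90 CPM in LM2 and 79.9, 108 and 32.4 in Par (log2 difference -3.12 ± 0.43 SE, adjusted p = 7.2e-05). MARCKSL1, an actin-binding protein of the membrane, had 9.72, 9.32 and 4.05 CPM in LM2 and 68.5, 97.8 and 24.01 in Par (log2 difference -3.06 ± 0.44 SE, adjusted p = 0.000115). In these last 3 genes Par library 2 was the highest and Par library 3 the lowest of its group, yet still above every LM2 library. C4BPB (a complement regulator), MXRA8 (a matrix-linked membrane protein), MAL2 (a protein of apical transport), PADI1 (a peptidyl arginine deiminase) and EPHA2 (an ephrin receptor) made up the rest, at log2 differences of -4.33 to -2.71.

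**Figure D2:**
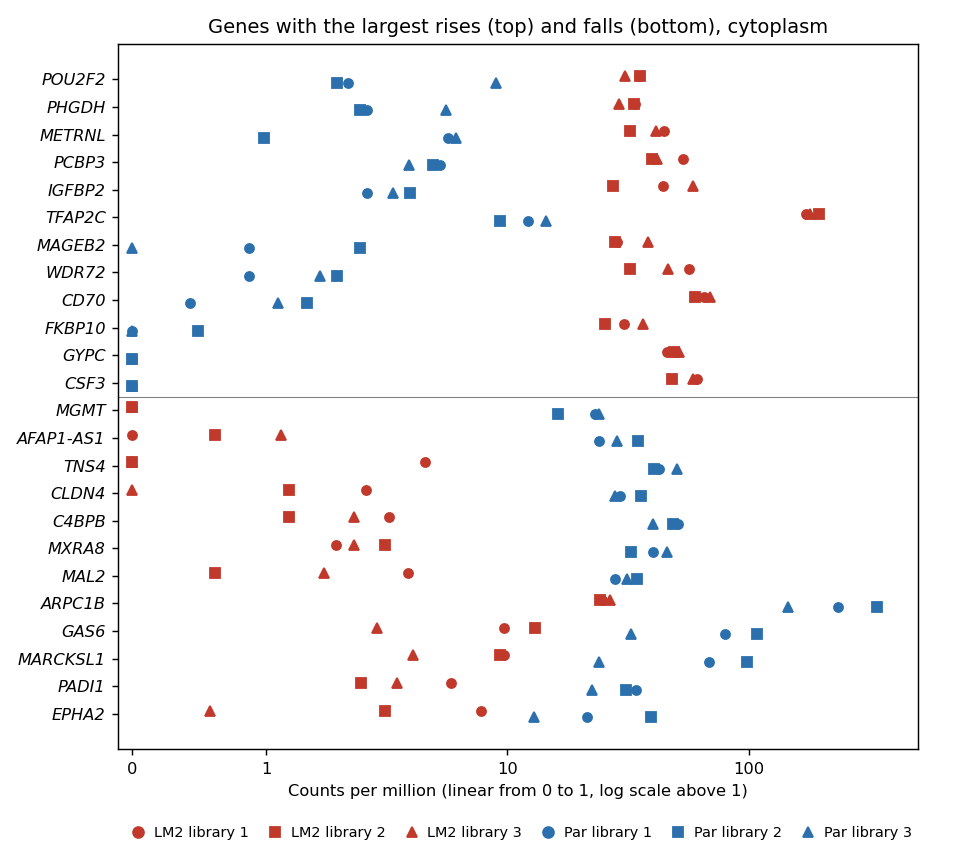
CPM in each of the 6 libraries (horizontal axis, linear from 0 to 1 and logarithmic above) for the 12 largest rises and the 12 largest falls among called genes with at least 20 CPM in the higher line and no overlap. LM2 points (red) and Par points (blue) are separate in all 24 genes, and the Par points of ARPC1B, GAS6, MARCKSL1 and EPHA2 spread in the order library 2, 1, 3.

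Among the most abundant called genes, judged by 3′-end reads, which do not grow with transcript length, ACTB, the cytoplasmic beta actin, had 18684, 19901 and 20239 CPM in LM2 and 10352, 10193 and 13588 in Par (log2 difference 0.79 ± 0.10 SE, adjusted p = 3.57e-05). S100A6, a calcium-binding protein, moved the other way, with 4032, 3798 and 3841 CPM in LM2 and 9864, 11497 and 7122 in Par (log2 difference -1.29 ± 0.13 SE, adjusted p = 3.1e-06). TUBA1B, an alpha tubulin, had 4814, 5059 and 4951 CPM in LM2 and 9320.0, 9629 and 6449 in Par (log2 difference -0.78 ± 0.12 SE, adjusted p = 0.000165). Groups did not overlap in any of these 3 genes. The ribosomal genes RPS14, RPS24, RPL27A and RPLP1 and ERH were called higher by 0.26 to 0.59, and CHCHD2, a mitochondrial protein, was called lower by 0.37 on the log2 scale. RPLP1 was no longer called without LM2 library 1 or Par library 1. YIPF4, a Golgi membrane protein whose values overlapped between groups, was called higher (log2 difference 0.44 ± 0.14 SE, adjusted p = 0.0221) and lost its call without LM2 library 1 or 3 or Par library 1, with DESeq2, and with non-whole entries left out.

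Epithelial junction and keratin genes were called lower in 9 of the 15 tested and higher in 1, with a median log2 difference of -1.13 against -0.01 over all genes tested. Of the 41 genes of that list, the others did not pass the filter on low counts. JUP, the plakoglobin of desmosomes and adherens junctions, had 6.48, 8.70 and 6.37 CPM in LM2 and 37.1, 40.8 and 29.6 in Par (log2 difference -2.31 ± 0.27 SE, adjusted p = 1.58e-05). SPINT2, an inhibitor of membrane serine proteases, had 15.6, 15.5 and 12.7 CPM in LM2 and 50.6, 86.0 and 43.5 in Par (log2 difference -2.04 ± 0.27 SE, adjusted p = 4.81e-05). KRT19, a keratin of simple epithelia, had 303, 331 and 378 CPM in LM2 and 875, 727 and 969 in Par (log2 difference -1.34 ± 0.12 SE, adjusted p = 9.9e-07). These differences were larger than the spread within either line, and Par library 3 was the lowest of its group in 5 of the 9 genes called lower. KRT81 and KRT86, hair-type keratins, were not called (0.10 ± 0.10 and -0.34 ± 0.24), and KRT81 was called without Par library 3.

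Of 11 mesenchymal genes, 2 were called higher and 2 lower, in all 36.4%, near the 32.7% of all genes tested, and 4 were called higher without Par library 3. S100A4, a calcium-binding protein linked to cell motility, had 104, 111 and 105 CPM in LM2 and 692, 594 and 617 in Par (log2 difference -2.57 ± 0.11 SE, adjusted p = 3e-10). VIM, the intermediate filament vimentin, had 205, 251 and 207 CPM in LM2 and 446, 608 and 313 in Par (log2 difference -1.04 ± 0.18 SE, adjusted p = 0.000424). TAGLN, the actin-binding transgelin, had 32.4, 22.996 and 20.8 CPM in LM2 and 3.93, 6.39 and 10.6 in Par (log2 difference 1.89 ± 0.34 SE, adjusted p = 0.000732). FN1, fibronectin, rose by 0.99 (adjusted p = 0.000765). MSN and AXL were not called (-0.15 ± 0.16 and 0.10 ± 0.13), but were without Par library 3. CAV1, the coat protein of caveolae, fell (525, 529.5 and 477 CPM in LM2 and 1263, 1509.5 and 1319.7 in Par; log2 difference -1.42 ± 0.10 SE, adjusted p = 6.39e-08).

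Of the matrix list, 6 genes were called higher and 7 lower of 26 (4 to 7 lower with single libraries left out). FBLN1, a fibulin of the extracellular matrix, had 25.9, 23.6 and 35.9 CPM in LM2 and 3.06, 4.42 and 6.70 in Par (log2 difference 2.61 ± 0.33 SE, adjusted p = 3.79e-05). COL1A1, a chain of type I collagen, had 42 reads in LM2 and 3 in Par, a ratio of 17.6 with a counting interval of 5.61 to 88.5. COL6A1, of a lung metastasis signature from the literature, rose by 1.52 (adjusted p = 0.00106). The laminin chain LAMB1 fell (1.94, 1.24 and 1.74 CPM in LM2 and 11.8, 7.37 and 6.70 in Par; log2 difference -2.36 ± 0.49 SE, adjusted p = 0.00193). Proteases and their inhibitors were called higher in 7 and lower in 5 of 23, and higher in 2 to 8 with single libraries left out. TIMP3, an inhibitor of metalloproteases, had 16.9, 22.996 and 12.2 CPM in LM2 and 60.2, 63.4 and 56.4 in Par (log2 difference -1.79 ± 0.22 SE, adjusted p = 2.54e-05). CTSD, the lysosomal protease cathepsin D, had 364, 321 and 386 CPM in LM2 and 1135, 1046 and 1433 in Par (log2 difference -1.75 ± 0.12 SE, adjusted p = 6.39e-08). ADAM19, a membrane metalloprotease, rose by 1.40 (adjusted p = 0.000216), and ADAM8 fell, with a log2 difference of -1.35 (adjusted p = 0.00174). Just 5 of the 23 genes of the lung metastasis signature passed the filter: FSCN1, an actin-bundling protein, and COL6A1 were called higher, ID1 lower, and LY6E and ANGPTL4 were not called.

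Of 54 actin regulators tested, 26 were called lower and 6 higher, against 16.8% and 16.0% of all genes, and the median log2 difference was -0.38. Beside ARPC1B, the Arp2/3 genes ARPC3, ARPC5L and ARPC5 fell by 0.75 to 1.16 on the log2 scale. ACTR3, BRK1 and ARPC1A were called lower by 0.28 to 0.62, but ACTR3 not without LM2 library 2 or 3 or Par library 2, and BRK1 and ARPC1A not without any of LM2 libraries 1, 2 and 3 and Par libraries 1 and 2. CAPZB, which caps filament ends, had 60.3, 58.4 and 35.9 CPM in LM2 and 162, 232 and 94.9 in Par (log2 difference -1.67 ± 0.26 SE, adjusted p = 0.000215). CTTN, the cortactin that stabilises branches, had 113, 115 and 119 CPM in LM2 and 379, 411 and 269 in Par (log2 difference -1.61 ± 0.15 SE, adjusted p = 1.2e-06). MYL12B, a myosin light chain, had 60.3, 54.1 and 42.3 CPM in LM2 and 161, 279.7 and 70.9 in Par (log2 difference -1.72 ± 0.33 SE, adjusted p = 0.00117). No LM2 library reached the lowest Par library in these genes. TMSB4X, which binds actin monomers, was lower by 2.60, but all its reads sat in non-whole values, so part of them may belong to a near copy. The genes that rose were ACTB, MYL9, FSCN1, TPM4, CAPG and ACTN1, the last not without LM2 library 1, 2 or 3 or Par library 1. FLNA, a filamin and one of the most abundant genes of the list, was not called (-0.06 ± 0.10). In 19 of the 26 genes called lower Par library 2 exceeded library 1 and library 1 exceeded library 3, and leaving out 1 library at a time gave 17 to 26 lower calls.

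Cytokine and NF-kB genes were called higher in 5 and lower in 4 of 24, in all 37.5%, near the 32.7% of all genes tested. The higher calls numbered 3 to 6 with single libraries left out, and in all 4 lower genes Par libraries stood in the order 2, 1, 3. After CSF3 and CD70, the clearest was IL11, a cytokine of the IL-6 family, with 1273, 1239.9 and 1338 CPM in LM2 and 477, 463 and 447 in Par (log2 difference 1.47 ± 0.09 SE, adjusted p = 1.48e-08). TNFRSF12A, the receptor of TWEAK, fell (117, 110.0 and 110.0 CPM in LM2 and 262, 304 and 202 in Par; log2 difference -1.19 ± 0.14 SE, adjusted p = 2.2e-05).

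Interferon-stimulated genes included 7 called lower and none higher of 20 tested, with a median log2 difference of -0.41. In all 35% were called, near the 32.7% of all genes tested. BST2, the membrane protein tetherin, had 26.6, 41.6 and 39.4 CPM in LM2 and 239.7, 239.9 and 222 in Par (log2 difference -2.70 ± 0.16 SE, adjusted p = 9.64e-09). ISG15, a ubiquitin-like modifier, was at 220 CPM in LM2 and 294 CPM in Par on average (log2 difference -0.42, adjusted p = 0.00940). IFI27 had 3 reads in LM2 and 70 in Par, a ratio of 18.6 with a counting interval of 6.11 to 92.4. IFIT1, an RNA-binding effector, had 6.48, 7.46 and 9.84 CPM in LM2 and 23.6, 13.3 and 20.1 in Par (log2 difference -1.25 ± 0.32 SE, adjusted p = 0.00783). PARP12 was called lower by 0.94 on the log2 scale. IFIT3 and HERC5 were also called lower, with few reads. The call of ISG15 was lost without LM2 library 2, that of PARP12 without LM2 library 3 or Par library 1, that of IFIT1 without Par library 1, that of IFIT3 without LM2 library 2 or 3 or Par library 1, and that of HERC5 without any of LM2 libraries 2 and 3 and Par libraries 1 and 2. Leaving out 1 library at a time gave 3 to 8 lower calls. The abundant IFITM2 was at nearly the same level in both lines (-0.00 ± 0.11), and in 3 of the 7 genes called lower the order among Par libraries was 2, 1, 3.

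The promoters of these genes are shown because interferon acts through a short element, bound by a complex of STAT proteins and IRF9. In RefSeq's promoter windows (GRCh38.p14, 250 bases before to 50 after the gene start), the letters GAAA followed, after any 2 bases, by GAAA again were searched on both strands with overlaps allowed, and 17 of the 20 genes had a window. The letters were found in 14 of the 17, in 996 of all 27305 windows (3.65%) and in 144 of the 5779 windows of genes tested (2.49%). All 7 genes called lower held them, and so did 7 of the 10 that were not called, so a match did not separate the genes that fell from those that did not. A stretch of 30 bases is printed 5′ to 3′ on the gene's strand for each gene called lower, with the match, or its complement, in capitals.
IFI27, chr14:94110631-94110660, plus strand: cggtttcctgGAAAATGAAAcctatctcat
BST2, chr19:17405741-17405770, minus strand: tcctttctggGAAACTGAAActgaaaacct
IFIT3, chr10:89327865-89327894, plus strand: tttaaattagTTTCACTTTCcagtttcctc
HERC5, chr4:88457035-88457064, plus strand: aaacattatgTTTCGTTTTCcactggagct
IFIT1, chr10:89392510-89392539, plus strand: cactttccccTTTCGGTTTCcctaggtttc
PARP12, chr7:140062942-140062971, minus strand: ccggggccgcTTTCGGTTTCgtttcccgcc
ISG15, chr1:1013374-1013403, plus strand: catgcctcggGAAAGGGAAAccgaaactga

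MHC class I genes were called higher in 1 and lower in 4 of 14 (0 to 2 and 2 to 4 with single libraries left out), in all 35.7%, near the 32.7% of all genes tested. PSMB8, a subunit of the immunoproteasome, fell (13.6, 19.9 and 12.7 CPM in LM2 and 30.1, 44.2 and 26.8 in Par; log2 difference -1.13 ± 0.27 SE, adjusted p = 0.00422), and PSMB10, another such subunit, was called higher by 0.50 but not without LM2 library 3. CALR, the chaperone calreticulin, fell by 0.73 on the log2 scale (adjusted p = 0.000485).

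Genes of TGF-beta, BMP and Wnt signalling were called higher in 2 and lower in 7 of 27, in all 33.3%, near the 32.7% of all genes tested. BMP4, a BMP ligand, had 1.30, 7.46 and 3.47 CPM in LM2 and 23.6, 25.6 and 27.4 in Par (log2 difference -2.62 ± 0.39 SE, adjusted p = 0.000138). ID1 and ID3, which BMP signals are known to induce, had log2 differences of -1.69 ± 0.20 and -1.85 ± 0.19 (adjusted p = 2.02e-05 and 3.8e-06). ID1 stood at 126, 141 and 116.4 CPM in LM2 and 419, 556 and 258 in Par, and all 3 LM2 libraries were under the lowest Par library. INHBB, a chain of activin, fell (5.18, 4.35 and 0.579 CPM in LM2 and 13.5, 13.8 and 17.9 in Par; log2 difference -2.16 ± 0.46 SE, adjusted p = 0.00212). WNT7B was not called with all 6 libraries (0.34 ± 0.15), but was without Par library 3 and with non-whole entries left out. YAP and TEAD targets were called higher in 2 and lower in 6 of 21, in all 38.1%. ANKRD1, an often used readout of YAP, had 214, 242 and 239.8 CPM in LM2 and 761, 675 and 697 in Par (log2 difference -1.62 ± 0.10 SE, adjusted p = 2.5e-08). TEAD4, a partner of YAP, rose by 0.91 (adjusted p = 0.00173), and TEAD1 was not called (0.14 ± 0.15). The lower calls of TEAD3 and AMOTL1 did not hold when single libraries were left out (LM2 libraries 2 and 3 and Par libraries 1 and 2 for TEAD3, and every library but LM2 library 2 for AMOTL1), and leaving out 1 library gave 2 to 6 lower calls.

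Receptor tyrosine kinases and ligands were called higher in 1 and lower in 5 of 17, in all 35.3%, near the 32.7% of all genes tested. MET, the receptor of hepatocyte growth factor, had 18.8, 18.0 and 19.7 CPM in LM2 and 44.1, 41.3 and 57.5 in Par (log2 difference -1.33 ± 0.21 SE, adjusted p = 0.000243). DDR1, a collagen receptor, fell by 1.16 on the log2 scale (adjusted p = 0.00288), and PDGFA, a growth factor, rose by 0.93 (adjusted p = 0.00124). Of immediate early and MAPK feedback genes, 7 were called higher and 6 lower of 28. DUSP5, a phosphatase of nuclear ERK, had 156, 129.9 and 127 CPM in LM2 and 54.1, 54.6 and 69.2 in Par (log2 difference 1.22 ± 0.15 SE, adjusted p = 2.59e-05). DUSP7, a phosphatase of cytoplasmic ERK, had 18.8, 26.1 and 14.5 CPM in LM2 and 48.5, 67.3 and 33.5 in Par (log2 difference -1.34 ± 0.27 SE, adjusted p = 0.00158). The MAPK phosphatases thus moved in opposite directions, with DUSP1 also called higher (1.65 ± 0.31).

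Glycolysis genes were called lower in 8 and higher in 1 of 23, with a median of -0.29. PGK1, which makes ATP in glycolysis, had 8.42, 6.22 and 11.003 CPM in LM2 and 24.9, 33.9 and 29.03 in Par (log2 difference -1.76 ± 0.28 SE, adjusted p = 0.000263). HK2, a hexokinase, had 9.72, 12.4 and 9.27 CPM in LM2 and 22.7, 45.7 and 38.5 in Par (log2 difference -1.75 ± 0.30 SE, adjusted p = 0.000399). SLC2A1, the glucose transporter GLUT1, had 14.3, 11.8 and 10.4 CPM in LM2 and 31.0, 34.4 and 30.7 in Par (log2 difference -1.40 ± 0.24 SE, adjusted p = 0.000446). PDK1, a kinase that holds back pyruvate dehydrogenase, and PFKFB2 fell too (-2.13 and -2.02). The groups were apart in each of these 5 genes. The more abundant PGAM1 and PKM were not called (-0.18 ± 0.09 and 0.18 ± 0.10), and PKM was called without Par library 3. Of 14 genes on a list of hypoxia genes, 1 was called higher and 3 lower, in all 28.6%, under the 32.7% of all genes tested. Leaving out single libraries gave 1 to 4 lower. The gene called higher was ADM, which encodes adrenomedullin (23.98, 22.996 and 28.96 CPM in LM2 and 3.06, 4.92 and 7.26 in Par; log2 difference 2.34 ± 0.33 SE, adjusted p = 9.19e-05), and those called lower were P4HA2, AK4 and NDRG1, by 0.43 to 1.44 on the log2 scale.

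Nuclear-encoded oxidative phosphorylation genes were called lower in 24 and higher in 3 of 55, with a median of -0.25. NDUFA1, a subunit of complex I, had 202, 211 and 183 CPM in LM2 and 484, 519 and 349 in Par (log2 difference -1.18 ± 0.14 SE, adjusted p = 1.43e-05). NDUFB3, also of complex I, had 20.7, 27.3 and 15.6 CPM in LM2 and 52.4, 74.7 and 31.3 in Par (log2 difference -1.32 ± 0.29 SE, adjusted p = 0.00257). SDHB, SDHC and SDHD of succinate dehydrogenase were called lower by 0.84 to 1.80, SDHD not without any of LM2 libraries 2 and 3 and Par libraries 1 and 2. The other 19 were lower by 0.25 (ATP5MC2) to 0.77 (ATP5F1C) on the log2 scale. In 15 of the 24, Par libraries were in the order 2, 1, 3, and LM2 library 3 was the lowest LM2 library in 17. Between 16 and 25 were called lower when single libraries were left out. The mRNAs that the mitochondrial genome itself encodes were called higher in 3 of 10 and lower in none, in all 30%, near the 32.7% of all genes tested. With single libraries left out, 2 to 7 were higher, 7 without Par library 3. MT-ND2 had 246, 213 and 230.5 CPM in LM2 and 117, 157 and 169.7 in Par (log2 difference 0.64 ± 0.14 SE, adjusted p = 0.00229), MT-ATP6 rose by 0.63 (adjusted p = 0.00429), and MT-CO3 was called higher but not without LM2 library 1 or Par library 1.

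Fatty acid and lipid enzymes were called lower in 9 and higher in 5 of 35. SCD, the desaturase that makes oleate, had 33.1, 30.5 and 33.6 CPM in LM2 and 215, 198 and 137 in Par (log2 difference -2.50 ± 0.18 SE, adjusted p = 8.76e-08). CHKA, a choline kinase, had 20.1, 25.5 and 12.2 CPM in LM2 and 88.2, 135 and 42.4 in Par (log2 difference -2.21 ± 0.34 SE, adjusted p = 0.000213). FADS2, a desaturase of polyunsaturated fatty acids, fell by 1.33 (adjusted p = 0.00151). SPHK1, which makes sphingosine-1-phosphate, rose (91.4, 73.3 and 59.6 CPM in LM2 and 25.3, 27.5 and 26.2 in Par; adjusted p = 3.48e-05). Of cholesterol and sterol genes, 6 were called lower and 1 higher of 20, in all 35%, near the 32.7% of all genes tested. CYP51A1 and LSS, enzymes of cholesterol synthesis, fell by 1.69 and 1.39, and MVD, of the same pathway, rose by 1.34 (adjusted p = 5.02e-05). In that list 2 to 8 genes were called lower when single libraries were left out.

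Genes of glutathione metabolism and of NRF2, a regulator of the response to oxidants, were called higher in 9 and lower in 6 of 34. NQO1, a quinone reductase, had 75.8, 93.8 and 77.0 CPM in LM2 and 29.7, 36.4 and 29.6 in Par (log2 difference 1.36 ± 0.17 SE, adjusted p = 2.84e-05). AKR1C1, an aldo-keto reductase, rose by 2.31 (adjusted p = 0.00156). TXNRD1, thioredoxin reductase, fell by 1.44 (adjusted p = 0.0019). All 4 metallothioneins tested, small metal-binding proteins of similar sequence, were called, 3 higher and 1 lower. MT1X had 122, 105 and 129 CPM in LM2 and 34.9, 29 and 38.0 in Par (log2 difference 1.80 ± 0.16 SE, adjusted p = 9.9e-07), and MT1E had 424, 415 and 371 CPM in LM2 and 766, 813 and 643 in Par (log2 difference -0.88 ± 0.11 SE, adjusted p = 2.62e-05).

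Regulators of the integrated stress response, which slows translation and induces ATF4, were called higher in 6 and lower in 1 of 17, with a median of 0.30. ATF4 itself had 2293, 2346 and 2509 CPM in LM2 and 1180.0, 1022 and 1256 in Par (log2 difference 1.05 ± 0.09 SE, adjusted p = 1.12e-06). CEBPB, a partner of ATF4, had 272, 285 and 318 CPM in LM2 and 123.1, 131 and 132 in Par (log2 difference 1.18 ± 0.11 SE, adjusted p = 2.42e-06). JDP2 had 251, 263 and 239 CPM in LM2 and 106, 83.6 and 115.6 in Par (log2 difference 1.30 ± 0.13 SE, adjusted p = 3.8e-06). The groups were far apart in all 3. CHAC1, a target of ATF4, was called higher by 1.05 but not without LM2 library 2. DDIT3 and DDIT4 were not called (-0.10 ± 0.16 and -0.03 ± 0.12), and PPP1R15A was called lower by 0.53 on the log2 scale, but not without LM2 library 2 or 3 or Par library 1. DDIT4 was higher, by 1.63, when ends of another annotation version were left out. Its transcript end held 94.5 to 99.4% of the reads of its 2 sites, so that value rests on a small part of its reads. Of 21 enzymes of serine, glycine, asparagine and one-carbon metabolism, 4 were called higher and 5 lower, and 1 to 6 were lower with single libraries left out. Par library 3 was the lowest of its group in all 5 lower genes. SHMT2, the mitochondrial serine hydroxymethyltransferase, had 369, 405 and 399.6 CPM in LM2 and 185, 190.2 and 204 in Par (log2 difference 1.02 ± 0.10 SE, adjusted p = 4.1e-06), and PSAT1, which acts right after PHGDH, was not called (-0.16 ± 0.15).

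Cytosolic ribosomal protein genes moved both ways, 12 called higher and 16 lower of 59 (median -0.07), with 20 higher without Par library 3. In 10 of the 16 lower genes the Par order was 2, 1, 3. RPL22 had 993, 1028 and 1148 CPM in LM2 and 1907, 2006 and 1549.8 in Par (log2 difference -0.79 ± 0.10 SE, adjusted p = 5.08e-05), and RPL37 had 128, 140.5 and 108 CPM in LM2 and 62.4, 66.8 and 62.0 in Par (log2 difference 0.98 ± 0.14 SE, adjusted p = 0.000121). RPL23A was called lower by 0.85, but was higher, by 0.32, when reads at positions other than transcript ends were left out, and its site use is given below. Mitochondrial ribosomal protein genes were called higher in 16 and lower in 14 of 62, and in 9 to 17 and 8 to 18 with single libraries left out. MRPL46 rose (121, 112 and 141 CPM in LM2 and 42.3, 29 and 46.9 in Par; log2 difference 1.67 ± 0.18 SE, adjusted p = 5.91e-06) and MRPL13 fell (38.9, 36.0 and 19.1 CPM in LM2 and 93.9, 106 and 49.7 in Par; log2 difference -1.42 ± 0.27 SE, adjusted p = 0.00103). In 10 of the 14 lower genes Par libraries stood in the order 2, 1, 3. Elongation factors EEF1G, EEF2 and the related TPT1 were the called genes of 13 (23.1%, under the 32.7% of all genes tested). They were higher by 0.40 to 0.53. EEF2 went the other way, at -0.14, when ends of another annotation version were left out.

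The hnRNP genes, whose proteins coat nascent RNA and guide splicing and poly(A) site choice, were called lower in 11 and higher in 2 of 27, with a median of -0.33. HNRNPF had 95.9, 105 and 92.1 CPM in LM2 and 347, 493 and 216 in Par (log2 difference -1.85 ± 0.21 SE, adjusted p = 1.52e-05). HNRNPL had 113, 104 and 84.0 CPM in LM2 and 258, 332 and 137 in Par (log2 difference -1.28 ± 0.23 SE, adjusted p = 0.000666). HNRNPA1 had 178, 229 and 175 CPM in LM2 and 382, 475 and 299 in Par (log2 difference -0.99 ± 0.15 SE, adjusted p = 0.000204). Each LM2 library was under each Par library, and Par libraries again ran in the order 2, 1, 3, as in 7 of the 11 genes. HNRNPC, the gene targeted in another experiment of the series, had 474, 499 and 486 CPM in LM2 and 603, 707 and 524 in Par (log2 difference -0.33 ± 0.11 SE, adjusted p = 0.0303). That small difference was called with all 6 libraries and was not called after leaving out any of LM2 libraries 1, 2 and 3 or Par libraries 1 and 2, or entries with non-whole reads. HNRNPM was not called (-0.03 ± 0.12). With single libraries left out, 6 to 12 hnRNP genes were called lower.

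Of 23 SR and related splicing factors, 5 were called lower and 1 higher (2 to 7 lower with single libraries left out). That is 26.1% in all, under the 32.7% of all genes tested. U2AF1, which reads the end of introns, had 213, 245 and 143 CPM in LM2 and 611, 929 and 272 in Par (log2 difference -1.60 ± 0.30 SE, adjusted p = 0.000875), and 36.4% of its reads were in non-whole values. Cleavage and polyadenylation factors were called lower in 3 of 22 (13.6%, under the 16.8% of all genes) and higher in none. CSTF3, a subunit of the cleavage stimulation factor, had 13.0, 13.7 and 8.11 CPM in LM2 and 29.7, 44.2 and 19.5 in Par (log2 difference -1.44 ± 0.32 SE, adjusted p = 0.00282). CPSF7, of the cleavage factor CFIm, had 7.13, 13.1 and 9.84 CPM in LM2 and 27.1, 29.98 and 15.6 in Par (log2 difference -1.28 ± 0.32 SE, adjusted p = 0.00599). PAPOLA, the main poly(A) polymerase, was called lower by 0.63, but not without any of LM2 libraries 2 and 3 and Par libraries 1 and 2. Single libraries left out gave 2 to 7 lower calls, 7 without Par library 3, and the 3 genes had Par libraries in the order 2, 1, 3. PABPN1, the nuclear poly(A)-binding protein, was not called (-0.29 ± 0.11), and PDLIM5 was not either (0.28 ± 0.11). PABPN1 was called without Par library 3, with library totals, with a replicate block and with a mean of at least 50 counts. It was also called with non-whole entries or ends of another annotation version left out. Poly(A)-binding, deadenylation and decay factors were called lower in 13 and higher in 4 of 40 (median -0.36), and higher in 2 to 5 with single libraries left out. The Par order was 2, 1, 3 in 9 of the 13 lower genes. SMG5 and SMG8, of nonsense-mediated decay, fell by 1.10 and 1.57 (adjusted p = 0.00355 and 0.00441). Nuclear export and pore genes were called lower in 10 (6 to 14 with single libraries left out) and higher in 5 (3 to 5) of 36. Par library 3 was the lowest of its group in 8 of the 10 lower genes. Called lower was XPO5, the exporter of microRNA precursors (-1.30 ± 0.30, adjusted p = 0.00387).

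Heat shock genes were called lower in 11 and higher in 3 of 33, with 7 higher without Par library 3. Par library 3 was the lowest of its group in 10 of the 11 lower genes, and the Par order was 2, 1, 3 in 7. HSPB11 had 16.2, 21.8 and 16.2 CPM in LM2 and 67.7, 87.5 and 53.6 in Par (log2 difference -1.95 ± 0.22 SE, adjusted p = 1.39e-05). The chaperonin subunits CCT2, CCT4, CCT5 and CCT8 were each called lower, by 0.46 to 0.78 (CCT5 not without LM2 library 2), while HSP90AA1, STIP1 and AHSA1 of the HSP90 cycle were called higher, by 0.41 to 0.52. HSP90AB1 and HSPA8 were not called (-0.12 ± 0.08 and -0.21 ± 0.08), and HSPA8 was called without Par library 2. Folding genes of the endoplasmic reticulum were called lower in 6 and higher in 2 of 17 (0 to 3 higher with single libraries left out). HSP90B1, the chaperone GRP94, had 9.07, 8.08 and 4.63 CPM in LM2 and 31.4, 39.8 and 17.9 in Par (log2 difference -2.04 ± 0.35 SE, adjusted p = 0.000414), and PDIA6, a disulfide isomerase, had 11.7, 15.5 and 12.7 CPM in LM2 and 30.6, 45.2 and 34.1 in Par (log2 difference -1.45 ± 0.25 SE, adjusted p = 0.000415). Lysosomal genes were called lower in 5 and higher in 1 of 20 (3 to 5 lower with single libraries left out), in all 30%, near the 32.7% of all genes tested. PSAP, the precursor of saposins, fell (43.4, 49.1 and 58.5 CPM in LM2 and 116.1, 137 and 84.9 in Par; log2 difference -1.16 ± 0.18 SE, adjusted p = 0.000223), and the gene that rose was TFE3, a regulator of lysosomal genes (266, 291 and 308 CPM in LM2 and 125, 117 and 148 in Par; log2 difference 1.15 ± 0.12 SE, adjusted p = 5.91e-06). VAMP8, a SNARE of vesicle fusion, had 59.6, 52.2 and 62.5 CPM in LM2 and 362, 289 and 381 in Par (log2 difference -2.56 ± 0.14 SE, adjusted p = 5.95e-09). It was the clearest of 3 calls among 31 SNARE genes (9.68%, under the 32.7% of all genes tested). The V-ATPase subunits ATP6V0B, ATP6V1E1, ATP6V1G1 and ATP6V1A fell, by 0.67 to 1.90, and no subunit of the 12 tested was called higher. In all 33.3% of the subunits were called, near the 32.7% of all genes tested, and their median log2 difference was -0.09. Without Par library 3, 2 subunits were called higher.

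Cyclins, CDKs and their inhibitors were called lower in 7 and higher in none of 19, with a median of -0.54. CDKN1B, a CDK inhibitor, had 29.8, 36.7 and 34.2 CPM in LM2 and 66.4, 94.4 and 53.04 in Par (log2 difference -1.09 ± 0.21 SE, adjusted p = 0.00111). CDKN2D, an inhibitor of the INK4 family, had 78.4, 102 and 60.2 CPM in LM2 and 233, 354 and 128 in Par (log2 difference -1.58 ± 0.27 SE, adjusted p = 0.000465). RBL1, a relative of the retinoblastoma protein, had 9.07, 14.3 and 10.4 CPM in LM2 and 25.8, 26.1 and 30.7 in Par (log2 difference -1.28 ± 0.26 SE, adjusted p = 0.00168). The genes called lower held both brakes of the cell cycle (these 3, CDKN2C and RB1) and genes that drive it (CCND1 and FOXM1), and in 6 of the 7 Par libraries were in the order 2, 1, 3. RB1 was not called without LM2 library 3 or Par library 2, nor CDKN2C without any of LM2 libraries 1 and 3 and Par libraries 1 and 2. Mitotic genes were called lower in 11 and higher in 5 of 49, in all 32.7%, the same share as over all genes tested. With single libraries left out, 7 to 16 were lower and 3 to 6 higher. The Par order was 2, 1, 3 in 8 of the 11. KIF2C, a kinesin of the centromere, had 33.1, 37.9 and 27.2 CPM in LM2 and 87.3, 106 and 65.9 in Par (log2 difference -1.41 ± 0.20 SE, adjusted p = 9.13e-05), and CDC25B, a phosphatase that activates CDK1, had 666, 687 and 728 CPM in LM2 and 333, 304 and 333 in Par (log2 difference 1.10 ± 0.10 SE, adjusted p = 9.16e-07). AURKB and TOP2A were not called (0.00 ± 0.10 and -0.18 ± 0.09). MCM2 and MCM7, of the replicative helicase, fell by 0.89 and 0.75 (adjusted p = 0.00109 and 0.000116), among 7 lower and 1 higher of 40 replication genes (4 higher without Par library 3). In all 20% of the replication genes were called, under the 32.7% of all genes tested, and their median log2 difference was -0.01.

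DNA repair genes were called higher in 6 and lower in 1 of 37. BRCA1 had 182, 190.2 and 202 CPM in LM2 and 121, 111 and 137 in Par (log2 difference 0.64 ± 0.12 SE, adjusted p = 0.00107). XRCC6, the Ku70 protein of end joining, had 1614, 1681 and 1879 CPM in LM2 and 1148, 1129 and 1334 in Par (log2 difference 0.52 ± 0.10 SE, adjusted p = 0.0008). BRIP1, a helicase that binds BRCA1, rose by 0.95 (adjusted p = 0.00685). The share called higher, 6 of 37, was close to that of all genes, and the share called lower was under it. Leaving out 1 library gave 4 to 7 higher and 0 to 4 lower calls. Chromatin regulators were called higher in 9 and lower in 7 of 55, in all 29.1%, near the 32.7% of all genes tested, and in 5 to 15 and 3 to 10 with single libraries left out. DNMT1, the maintenance DNA methyltransferase, had 41.5, 47.9 and 48.1 CPM in LM2 and 129, 213 and 83.2 in Par (log2 difference -1.63 ± 0.26 SE, adjusted p = 0.00022), and CHD3, a remodeller of the NuRD complex, had 422, 472 and 483 CPM in LM2 and 217, 167 and 232 in Par (log2 difference 1.16 ± 0.12 SE, adjusted p = 6.34e-06). The call of CHD3 was lost when reads at positions other than transcript ends were left out. Among 24 apoptosis regulators, 4 were called higher and 2 lower, in all 25%, under the 32.7% of all genes tested, and 1 to 5 and 1 to 2 with single libraries left out. CASP4, an inflammatory caspase, rose (24.6, 21.8 and 17.4 CPM in LM2 and 5.24, 5.90 and 5.58 in Par; log2 difference 1.92 ± 0.31 SE, adjusted p = 0.000265). Of the tubulin list, 5 were called higher (2 to 7 with single libraries left out) and 7 lower of 19. TUBB6, a beta tubulin, had 804, 810.5 and 920.2 CPM in LM2 and 240.1, 229 and 266 in Par (log2 difference 1.79 ± 0.10 SE, adjusted p = 9.64e-09), opposite to TUBA1B, while TUBA1C was not called (-0.06 ± 0.08). AEN, a nuclease induced by p53, rose (465, 448 and 519 CPM in LM2 and 188, 152 and 199.9 in Par; log2 difference 1.41 ± 0.12 SE, adjusted p = 5.9e-07), and CDKN1A, another p53 target, was not called (-0.17 ± 0.15).

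**Figure D3:**
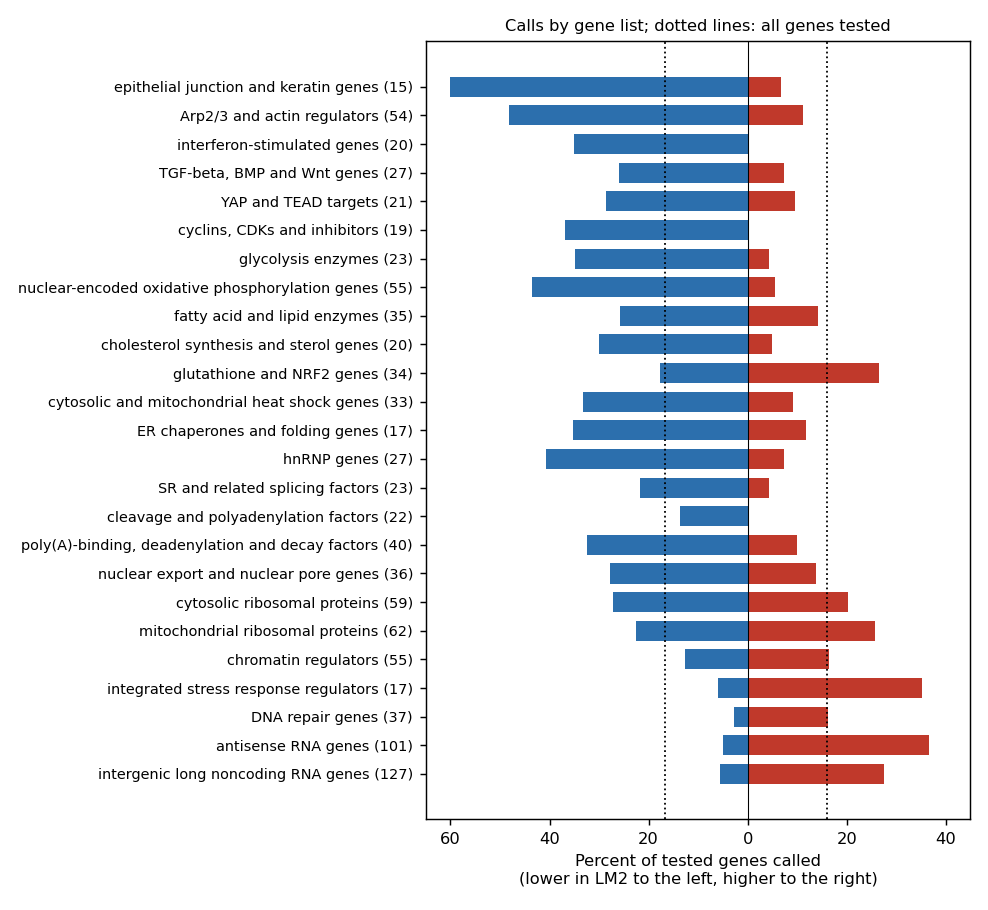
Percent of the tested genes of each list (number in brackets) called lower (blue, to the left) or higher (red, to the right) in LM2, with dotted lines at the shares of all 7601 genes tested, 16.8% and 16.0%. Of the lists drawn, the epithelial, actin, oxidative phosphorylation and hnRNP lists reach farthest to the left, and antisense RNA, stress response and intergenic RNA lists farthest to the right.

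Noncoding RNA genes were called higher more often than protein-coding genes, but mostly among genes whose reads lay in non-whole values. Of 101 antisense RNA genes 37 were called higher and 5 lower (median 0.49), and of 127 intergenic RNA genes 35 were called higher and 7 lower (median 0.42). With single libraries left out, 3 to 9 antisense genes were lower, and 23 to 47 intergenic genes were higher and 3 to 9 lower. Over 296 lincRNA, antisense, sense-intronic and TEC genes (TEC, awaiting experimental support), 33.8% were called higher and 4.73% lower. For 7063 protein-coding genes the shares were 15.1% and 17.5%. Most reads were in non-whole values, which estimated counts take when reads are split between entries, in 80 of the 100 noncoding genes called higher. With such genes set aside, a split chosen after the values were seen, 20 of 128 noncoding genes were called higher (15.6%) and 12 lower (9.38%), with a median of 0.23. Protein-coding genes with most reads in non-whole values were also called higher often, 136 of 410 (33.2%). SLCO4A1-AS1, antisense to a transporter gene, had 66.1, 61.5 and 58.5 CPM in LM2 and 13.97, 11.8 and 6.70 in Par (log2 difference 2.49 ± 0.24 SE, adjusted p = 2.13e-06). LINC02087 had 103, 93.8 and 96.1 CPM in LM2 and 34.5, 29.98 and 37.4 in Par, but all its reads were in non-whole values. LINC00261 fell (3.89, 3.11 and 1.16 CPM in LM2 and 14.4, 27.0 and 7.26 in Par; log2 difference -2.58 ± 0.53 SE, adjusted p = 0.00175). TUG1 was called higher by 0.43, and not without any of LM2 libraries 1, 2 and 3 and Par libraries 1 and 3, nor with DESeq2, with library totals, without the filter on low counts, or without ends of another annotation version. snoRNA host genes, many of whose spliced RNAs are short-lived, were called lower in 5 and higher in 2 of 11 (3 to 5 and 0 to 2 with single libraries left out). SNHG5 had 507, 497 and 474 CPM in LM2 and 949.5, 1120.2 and 644 in Par (log2 difference -0.88 ± 0.15 SE, adjusted p = 0.000385).

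The noncoding genes were also more nuclear than protein-coding genes. In the gCTRL libraries, poorly metastatic MDA-MB-231 cells of control genotype in another table, the median log2 ratio of nuclear to cytoplasmic CPM was 1.00 for the 296 noncoding genes and -0.21 for protein-coding genes. Over all genes tested, however, the change did not rise steadily with that ratio. With the genes in 5 equal classes by that ratio, in the most cytoplasmic class the median log2 difference between LM2 and Par was 0.19, with 26.5% called higher and 8.88% lower. It was -0.21 in the class before the last (9.28% higher, 22.2% lower) and 0.02 in the most nuclear class (17.9% and 18.3%). The part of nuclear RNA in the noncoding difference was not tested. By level, the share called rose from 6.57% higher and 10.5% lower in the lowest of 5 classes to 31.1% and 23.6% in the highest.

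Site use was tested in 935 genes as the ratio of reads at the more distal to the more proximal of the 2 most used sites, with edgeR as above. Both sites averaged 10 counts or more, and their order had to be set. In 565 of the 935 genes the pair was a transcript end and a position. There the position was taken as proximal because of the transcript it is listed with, not from coordinates. Of these, 177 passed (18.9%), 120 toward the proximal site in LM2 (12.8%) and 57 toward the distal site (6.10%). Over all 935 genes the median log2 difference of the ratio was -0.16. The median share of reads at the distal site was 48.2, 50 and 50% in LM2 libraries 1 to 3 and 53.7, 55.1 and 51.8% in Par libraries 1 to 3. The 3 LM2 values were under the 3 Par values, with Par library 3 nearest to them. Groups did not overlap in 328 genes (35.1%). In 74 of the 120 proximal calls (61.7%) the distal share was highest in Par library 2 and lowest in Par library 3, against 206 of 758 genes not called (27.2%) and 4 of 57 distal calls (7.02%). Its part in the shift was not tested. Without Par library 3, 287 genes were called, 173 of the 177 among them, which comes from the other libraries of the same fit and is no separate check.

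**Figure D4:**
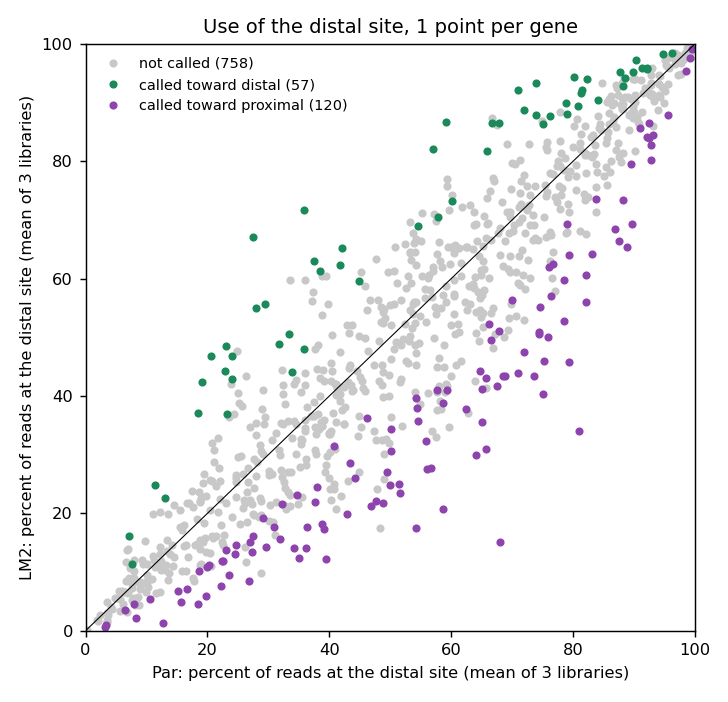
Mean percent of reads at the distal site in Par (horizontal axis) and LM2 (vertical axis) for 935 genes, 1 point each, with the diagonal of equal use. More called genes lie under the diagonal (120 toward proximal, purple) than above it (57 toward distal, green).

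Both ends of a pair changed, in unequal amounts. In the 120 genes that shifted toward the proximal site, the reads at the distal site had a median log2 difference of -0.99 and those at the proximal site 0.36. In the 57 that shifted toward the distal site, the medians were 0.52 at the distal and -0.84 at the proximal site. Of the 161 tested genes called lower in expression, 38 shifted toward the proximal and 12 toward the distal site. Of 149 called higher, 11 and 14 did. Since expression sums the same reads, these counts are not independent of each other.

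The largest shifts toward the proximal site were in ACTN4, an actin cross-linker, with 46.3, 51.1 and 40.2% of its reads at the distal site in LM2 and 85.4, 88.9 and 63.6% in Par (log2 difference of the ratio -2.38 ± 0.38 SE, adjusted p = 0.000454). Its distal reads were lower in LM2 by 2.43 on the log2 scale and its proximal reads were about equal (0.06). SFPQ, a paraspeckle protein that binds RNA, had 24.4, 32.1 and 33.2% of its reads at the distal site in LM2 and 68.1, 74.2 and 50.2% in Par (log2 difference of the ratio -2.14 ± 0.33 SE, adjusted p = 0.000412). CTDSP2, a phosphatase, had 45.8, 47.5 and 37.2% of its reads at the distal site in LM2 and 75.5, 81.1 and 64.1% in Par (log2 difference of the ratio -1.92 ± 0.33 SE, adjusted p = 0.000945). RC3H2, which binds and destabilises mRNAs, had 49.7, 47.4 and 40.98% of its reads at the distal site in LM2 and 77.9, 80.6 and 67.2% in Par (log2 difference of the ratio -1.87 ± 0.29 SE, adjusted p = 0.00045). In all 4 the groups were apart, with Par library 3 the lowest of its group. ACTN4 and SFPQ were not called when the most distal and most proximal sites of the gene were compared instead. ZFAND3, UBE2J2, HMGB2 and HMGB1P5 shifted by 1.83 to 2.13. All reads of HMGB1P5, a processed copy of HMGB1, were in non-whole values, so its reads may belong to its parent, and it was not called with limma and a pseudocount of 1. UBE2J2 had 5.06% or less of its reads at the distal site in every library.

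Among the largest shifts toward the distal site was RPL23A, with 69.2, 61.3 and 84.8% of its reads at the distal site in LM2 and 31.7, 18.9 and 57.1% in Par (log2 difference of the ratio 2.33 ± 0.47 SE, adjusted p = 0.00254). Its reads fell at the proximal site by 2.06 and differed by 0.32 at the distal one. CHMP3, of the ESCRT machinery that cuts membranes, had 93.2, 93.6 and 95.2% of its reads at the distal site in LM2 and 81.8, 74.7 and 90.7% in Par (log2 difference of the ratio 1.69 ± 0.32 SE, adjusted p = 0.00169). RTF1, of the PAF complex of transcription elongation, had 51.8, 57.6 and 57.5% of its reads at the distal site in LM2 and 21.9, 24.7 and 41.6% in Par (log2 difference of the ratio 1.67 ± 0.35 SE, adjusted p = 0.00336). SRSF3, an SR splicing factor, had 94.6, 93.8 and 97.4% of its reads at the distal site in LM2 and 89.6, 85.3 and 88.4% in Par (log2 difference of the ratio 1.49 ± 0.32 SE, adjusted p = 0.00386). Here Par library 3 was the highest of its group in RPL23A, CHMP3 and RTF1, again on the LM2 side. C1orf21, DYNC1LI2, SNRPD3 and HNRNPUL1 shifted by 1.35 to 1.81. The call of C1orf21 was lost without LM2 library 1 or 3 or Par library 1, that of HNRNPUL1 without LM2 library 3, and that of DYNC1LI2, which overlapped between groups, without LM2 library 2 or 3 or Par library 1 or 2. All reads of SNRPD3 were in non-whole values. SRSF3 and SNRPD3 were not called with the most distal and most proximal sites, nor RPL23A, C1orf21 and DYNC1LI2 with limma and a pseudocount of 1.

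**Figure D5:**
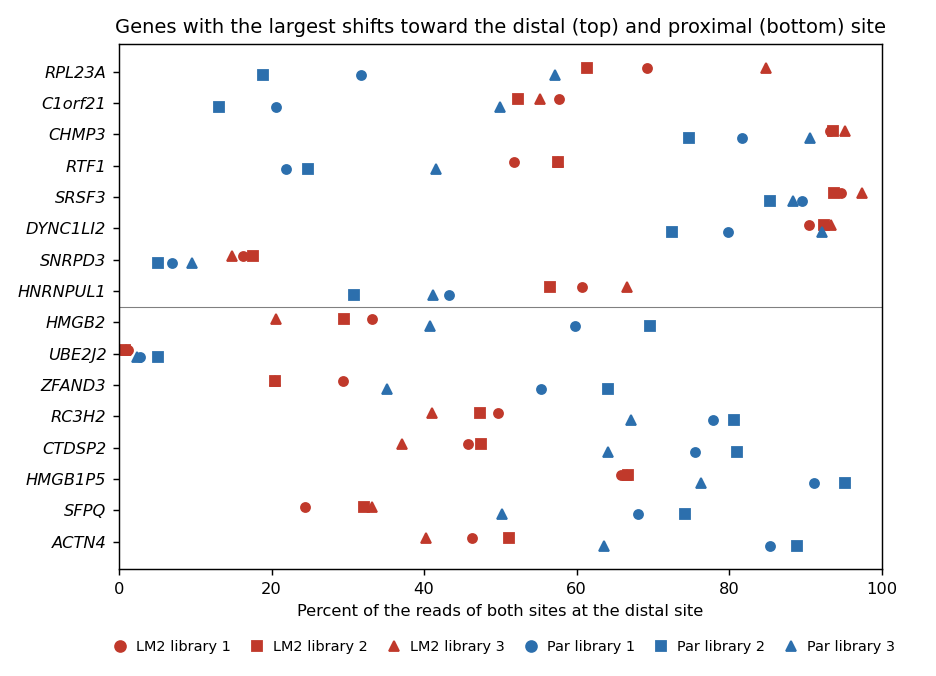
Percent of the reads of both sites at the distal site (horizontal axis) in each of the 6 libraries for the 8 largest shifts toward the distal and the 8 toward the proximal site. In every gene but DYNC1LI2 the LM2 (red) and Par (blue) points are separate, and the Par library nearest to LM2 is often library 3 (triangle).

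Other genes of the lists also switched. EIF1AD, a relative of initiation factor EIF1A, had 13.3, 5 and 26.9% of its reads at the distal site in LM2 and 70.6, 72.2 and 61.3% in Par (log2 difference of the ratio -3.45 ± 0.63 SE, adjusted p = 0.00144), with just 15 reads in LM2 library 1 and 34 in Par library 1. SRSF4, an SR splicing factor, had 18.3, 18.9 and 17.4% of its reads at the distal site in LM2 and 39.2, 39.9 and 37.4% in Par (log2 difference of the ratio -1.51 ± 0.31 SE, adjusted p = 0.00276), with Par values within 3 percentage points of each other. CCND1, cyclin D1, had 87.6, 86.0 and 85.9% of its reads at the distal site in LM2 and 92.0, 93.0 and 92.2% in Par (log2 difference of the ratio -0.92 ± 0.20 SE, adjusted p = 0.0036). TOP2A had 25.5, 22.2 and 26.1% of its reads at the distal site in LM2 and 38.9, 41.9 and 33.0% in Par (log2 difference of the ratio -0.91 ± 0.21 SE, adjusted p = 0.00571), while its summed expression was not called. The shift was toward the proximal site in these 4 genes, and their calls held in each of the 6 fits that left out 1 library, but those of CCND1 and TOP2A not with limma and a pseudocount of 1. ARNT, the partner of HIF1A, and NDC1, of the nuclear pore, shifted toward the distal site (2.27 and 2.24, adjusted p = 0.0036 and 0.00336).

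The last 30 bases of both ends are shown for 3 of these genes whose 2 sites are annotated ends in 1 last exon, because the poly(A) signal that directs cleavage lies in that window. They were read from the GENCODE 29 transcripts (GRCh38), 5′ to 3′ on the transcript's strand, and capitals mark the signal AATAAA or ATTAAA, where there is one.
RC3H2 distal end, RC3H2-203, chr9:122844556-122844585, minus strand: acaaAATAAAattatttgtccaccttaaaa
RC3H2 proximal end, RC3H2-206, chr9:122849437-122849466, minus strand: gcattagcattatgaaaaaaaaaaagaaaa
EIF1AD distal end, EIF1AD-204, chr11:65996545-65996574, minus strand: acaaaaAATAAAcgagatgggttaaagata
EIF1AD proximal end, EIF1AD-202, chr11:65998389-65998418, minus strand: gtctgagtggctctctcgggggagggagat
SRSF4 distal end, SRSF4-208, chr1:29147853-29147882, minus strand: tctggtattgtgattatattgttttatatt
SRSF4 proximal end, SRSF4-202, chr1:29148671-29148700, minus strand: actgaccgctcccagtccagatctccatcc

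In RC3H2 the ends lie 4881 bases apart and in EIF1AD 1844, and in both the signal stands at the distal end, whose share fell in LM2. SRSF4, 818 bases apart, had neither form of the signal in the last 40 bases of either end. These letters (no other forms were searched, on the transcript's strand) stood within the last 40 bases of 64.6% of the 4506 transcript ends with a mean of at least 10 counts. Among the 220 tested pairs of transcript ends, they were found at 74.5% of distal and 23.6% of proximal ends. For the 31 pairs called toward the proximal site, 25 distal ends (80.6%) and 4 proximal ends (12.9%) held them. For the 8 called toward the distal site, 2 distal and 4 proximal ends did, and for the 181 not called 137 distal (75.7%) and 44 proximal ends (24.3%). At the median proximal end of those 31 pairs 43.3% of the last 30 bases were A, as at their distal ends. These bases lie before the end, and those after it, where priming within a transcript would occur, were not read. Whether reads at ends without a signal mark cleavage or priming within the transcript was not tested.

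In nuclei of the same lines, sequenced less deeply, 28 of 7192 genes were called by the same test. Of the 2275 cytoplasmic calls that were also fitted there, 1841 (80.9%) had the same sign in nuclei, against 62.0% of genes not called in the cytoplasm. Of those that changed at least 2-fold, 668 of 762 did (87.7%). Among the largest changes, CSF3 averaged 254 CPM in LM2 nuclei and 0.660 CPM in Par nuclei, and MGMT averaged 0 and 13.4 CPM. Both rises and falls could be set beside levels in tables scaled on their own, with no test. In 11 of the 12 largest rises the lowest of 9 DMSO-treated LM2 libraries (total RNA) was above the highest of 3 gCTRL cytoplasm libraries. The exception was PCBP3, at 4.32 to 20.4 CPM in the LM2 libraries and 1.09 to 6.49 in gCTRL. CSF3 stood at 23.5 to 121 CPM there against 0.474 to 1.62, and GYPC at 34.3 to 59.5 against 0 to 0.474. In 9 of the 12 largest falls the LM2 libraries were all lower, as for MGMT, at 0 to 0.617 CPM against 23.9 CPM or more. EPHA2 did not follow, at 6.78 to 52.7 CPM in LM2 libraries against 2.16 to 9.24 in gCTRL, and the ranges of GAS6 and MARCKSL1 overlapped.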

How the data were processed

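The submitters' processing notes name Salmon 0.14.1 and the hg38 genome; the step that assigned reads to sites, its annotation and its use of strand are not given in the sources used here. The authors deposited estimated counts (expected counts, not all whole) per site and library, in 3 tables. Entries are annotated transcript ends or positions. Of 94924 entries, 66115 of 71604 ends were matched to GENCODE 29 transcripts, and 89065 entries of 42145 genes were used; unused entries made up 0.934 to 0.983% of each library. Positions could not be tied to GRCh38 coordinates and are given by order alone. A position was taken as proximal to the transcript end it is listed with. Of the reads, 12.5% lay in non-whole values.

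Values were summed per gene, rounded and tested with edgeR 4.0.16 in R 4.3.3 (filterByExpr, TMM scaling, quasi-likelihood test, Benjamini-Hochberg adjusted p under 0.05) on the 6 cytoplasm libraries. Site use was tested as a site by group interaction on the 2 most used sites of a gene. CPM are TMM-scaled within the 6 libraries, and those of gCTRL, DMSO and nuclear libraries within their own sets. The total count per library leaves genes of few reads imprecise; counting intervals are 95% exact intervals, and intervals and limits cover counting error only. The scripts were tested on simulated data. The labels state no batch, so the fit had no block, and whether same-numbered LM2 and Par libraries are paired was not settled. Alternatives included DESeq2 1.42.0, limma 3.58.1, other filters, scalings and site choices, and each library left out.

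The members and the 63 gene lists were chosen with earlier results of these data known. Genes were named by rule: among called genes with at least 20 CPM in the higher line, no overlap and under 50% of reads in non-whole values, the 12 largest rises and 12 largest falls; the 10 most abundant called genes; in each list up to 5 called members by size and 2 not called by level; HNRNPC, PDLIM5 and the poly(A) factors; for site use, called list members and the 8 largest shifts each way with both sites at a mean of at least 30 counts. Further list members were named after their values were seen.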

Additional observations from a re-analysis of the deposited data

How the results depend on the processing

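The number of genes called stayed within 1.5 times under other scalings, DESeq2, other filters and other choices of entries (1795 to 2655), and moved under 2 alternatives. Tested against a 1.5-fold change, 541 genes were called (197 higher, 344 lower). With nuclei in the same fit of all 12 libraries, where the biological coefficient of variation was 36.7% against 13.4%, 931 were called (340 higher, 591 lower), 885 of them among the 2489. All 2477 of the 2489 that were fitted kept their direction, but it comes from the same 6 cytoplasm libraries, so this is no separate check. Leaving out 1 library gave 1711 to 3290 genes, 801 to 1618 higher and 883 to 1672 lower. Site use depended more on the processing. Calls numbered 80 with both sites at 50 counts or more (21 toward distal, 59 toward proximal) and 77 with limma and a pseudocount of 1 (22 and 55). They numbered 293 with diffSpliceDGE, which gives no direction, and 0 with all 12 libraries (0 and 0). With all 12 libraries 170 of 828 genes had an unadjusted p under 0.05. All 162 calls fitted there kept their direction, which again comes from the cytoplasm libraries and is no separate check. Leaving out 1 library gave 79 to 287 site calls, 16 to 91 toward distal and 59 to 196 toward proximal. The cause was not tested. Of 282 named genes called for expression, 214 kept their call in each of the 6 fits that left out 1 library, and of 55 named for site use 24 did. Signs reversed for DDIT4 (1.63) and EEF2 (-0.14) without ends of another annotation version. The DDIT4 value rests on a small part of that gene's reads. Signs also reversed for RPL23A (0.32) without position entries and ZNF395 (-1.61) without non-whole entries. In site use they reversed for RPL13 (0.51), SYNCRIP (0.71) and SRSF11 (-0.23) with the most distal and most proximal sites. Site use also reversed for RPL13 (1.41) and SRSF10 (0.50) without non-whole entries. Whether replicate numbers pair the libraries was not settled. Same-numbered deviations from the group means correlated at 0.021, 0.103 and 0.145. LM2 libraries 2 and 3 correlated best with the Par library of the same number, and LM2 library 1 with Par library 2 (0.0437). With a replicate block 2732 genes and 239 site shifts (81 toward distal, 158 toward proximal) were called.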
